A study of Rattus norvegicus with 6 samples.

Results

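The granule neuron lineage factors are 10 listed genes of neuronal differentiation: Neurog1, Neurog2, Neurod1, Neurod2, Neurod4, Neurod6, Eomes, Tbr1, Prox1 and Dcx. Not all are particular to granule neurons: Neurod6 is a factor of pyramidal neurons and Tbr1 of early-born neurons of the cortex. The 10 genes were listed by gene name, with earlier results of these data known. Each was read from the probe set that carries its symbol alone. Such a probe set exists for 9 of them, among 17245 genes named in this way. The single probe set that lists Eomes carries 3 gene symbols, so Eomes has no value here. Among the 9 measured factors, Dcx rose in quiescent cultures (2.25-fold), Neurod1 fell (2.89-fold lower), and 7 did not pass the test, where 14.1% of all genes passed. Dcx passed whichever 1 array was left out, whereas Neurod1 passed in 1 of these 6 fits, that without Q-NSPC replicate 1.

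The cultures were neurospheres of stem and progenitor cells (NSPCs) from the hippocampus of adult rats, in N2 medium. Quiescent cultures (Q-NSPC) received BMP4 (50 ng/ml) together with FGF2 (10 ng/ml) over 4 days, and active cultures (A-NSPC) received only the FGF2 (10 ng/ml) over the same 4 days, with 3 biological replicates and 1 Affymetrix Rat Gene ST array per replicate in each condition. FGF2, a mitogen, was present in both conditions, and BMP4, a ligand of the TGF-beta family, was the agent used to bring cells into quiescence. Strain, sex and age of the animals are not given in the labels, and the labels do not say what separates the biological replicates, so the p-values measure the spread between these cultures. Values are log2 intensities, a difference is Q-NSPC minus A-NSPC, and a difference of 1 is a doubling.

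In the adult dentate gyrus, radial glia-like stem cells give rise to intermediate progenitors, then to neuroblasts, and then to glutamatergic granule neurons. Neurogenins and NeuroD proteins are basic helix-loop-helix (bHLH) transcription factors that bind E-boxes in DNA as dimers with broadly expressed E proteins. Eomes (also called Tbr2) marks intermediate progenitors, Prox1 is a homeobox factor kept through granule neuron life, and Dcx (doublecortin) binds microtubules in migrating and immature neurons. Dcx is not particular to granule neurons, since new GABAergic interneurons carry it too.

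Of 16 markers of neural stem cells and dividing cells, 3 rose and 3 fell in Q-NSPCs (37.5%, against 14.1% of all genes). Id4, Id1 and Id3, inhibitors of bHLH factors, differed by 1.59, 1.02 and 1.90 on the log2 scale (adjusted p = 0.0016, 0.00676 and 0.0109), and Hopx, a homeodomain protein of radial glia-like stem cells, by -1.37 (adjusted p = 0.00204). Mcm2 and Ccnd1, genes of dividing cells, also fell, with differences of -0.84 and -1.37 (adjusted p = 0.0459 and 0.0231). The number of the 16 that fell was 7 without Q-NSPC replicate 1 and 1 without any other array. Sox2, a factor of neural stem cells, had a log2 intensity of 12.52 ± 0.05 in Q-NSPCs and 12.28 ± 0.02 in A-NSPCs (SD, n = 3 each), and its difference did not pass (adjusted p = 0.114). One array stood apart. Q-NSPC replicate 1 had a log2 intensity of 12.02 for Mki67, a marker of dividing cells, against 10.83 and 11.15 in Q-NSPC replicates 2 and 3 and 12.26 ± 0.04 in A-NSPCs (SD, n = 3). Over all genes, 14.1% passed the test at an adjusted p under 0.05 (limma, Benjamini-Hochberg over 17245 genes), 7.91% higher and 6.2% lower in Q-NSPCs. Without Q-NSPC replicate 1 the number of genes past it was 4079, against 2433 with all arrays, and without 1 of the other 5 arrays it was 419 to 1197.

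Of the 9 measured factors, 1 was higher and 1 was lower in Q-NSPCs, against 7.91% and 6.2% of all genes. At an unadjusted p under 0.05 there were 5 of the 9 (Dcx, Neurod1, Prox1, Neurod6 and Neurog2), against 29.5% of all genes. The arrays of both conditions did not overlap for 5 of the 9, 4 of them higher and 1 lower in Q-NSPCs, where 34.0% of all genes did not overlap. The median difference of the 9 factors was 0.24 on the log2 scale, against 0.01 for all genes. RMA values carry no detection call, and 6 of the 9 factors had a mean over the arrays under 8.27, the median of all genes. The 3 above it were Dcx, Prox1 and Neurod1. RNA was taken from whole cultures, in which fewer cells that express a gene and less RNA per cell cannot be told apart.

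**Figure D1:**
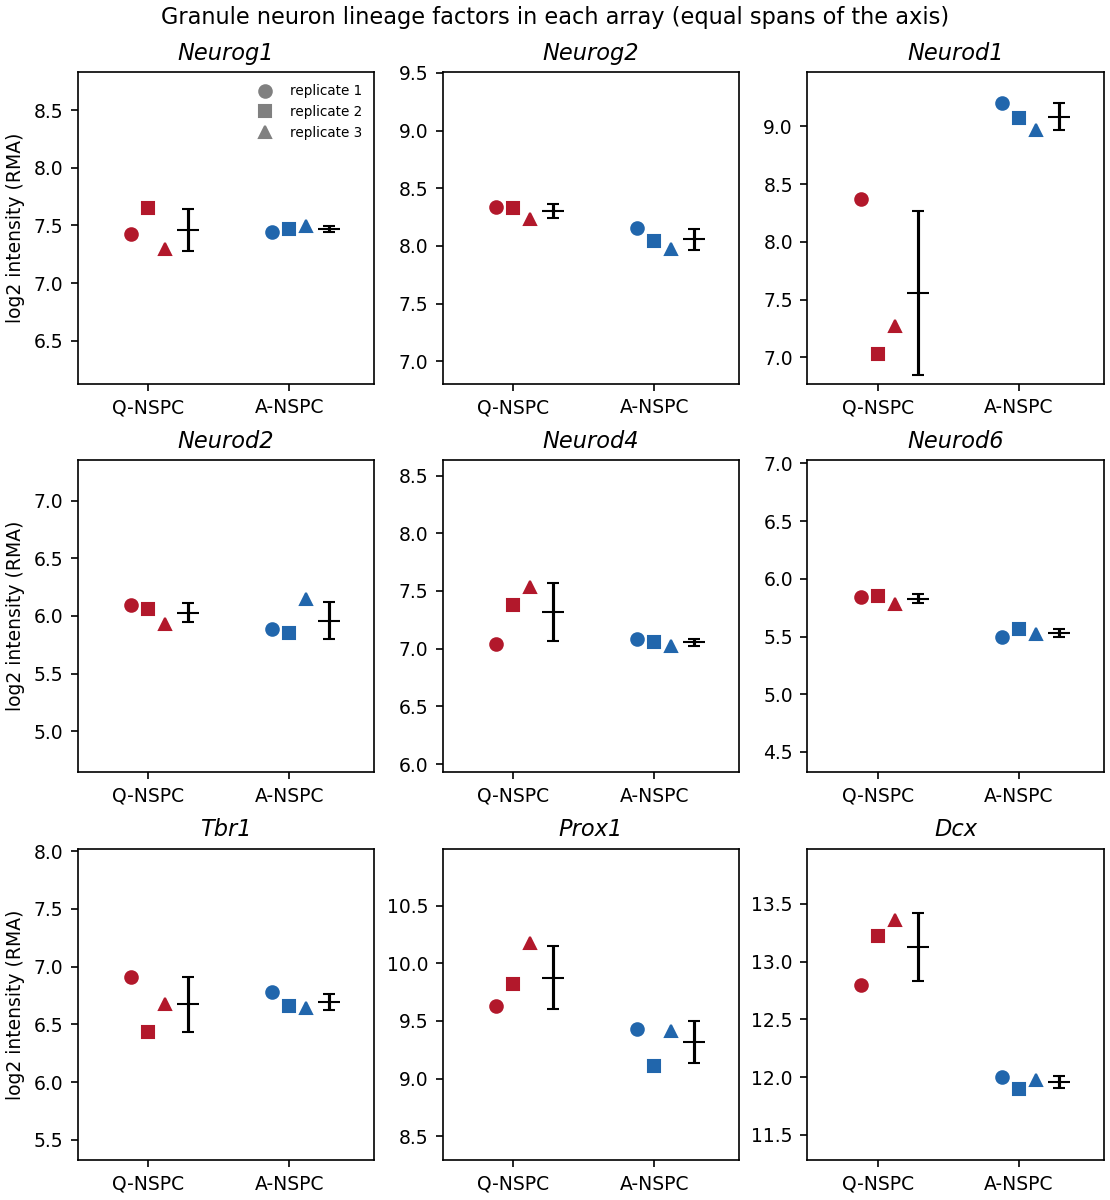
Log2 intensity (RMA) of the 9 measured granule neuron lineage factors in each array, with Q-NSPC arrays in red on the left and A-NSPC arrays in blue on the right of each panel, one symbol per replicate number, and the mean ± SD (n = 3) in black. All panels span the same number of log2 units. Dcx, Prox1, Neurog2 and Neurod6 have all Q-NSPC arrays above all A-NSPC arrays, Neurod1 has all of them below, and the other 4 panels overlap.

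The neurogenins, proneural factors that start neuronal differentiation in progenitors, did not pass the test. Neurog2, which acts in the glutamatergic lineage of the forebrain, had log2 intensities of 8.34, 8.33 and 8.23 in Q-NSPCs, against 8.16, 8.04 and 7.97 in A-NSPCs. All Q-NSPC arrays lay above all A-NSPC arrays, by a narrow margin. Its difference was 0.24 (95% interval 0.02 to 0.47) and did not pass (adjusted p = 0.136). Neurog1, its close relative, had 7.43, 7.65 and 7.30 in Q-NSPCs and 7.45, 7.47 and 7.50 in A-NSPCs. The A-NSPC arrays fell within the range of the Q-NSPC arrays, and the difference of -0.01 had an interval of -0.27 to 0.25 (adjusted p = 0.972). The interval leaves room for a change of Neurog1 of up to 1.21-fold lower in Q-NSPCs on this scale.

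Neurod1 was the only NeuroD gene past the test. Neurod1, which drives the survival and maturation of newborn granule neurons, had log2 intensities of 8.37, 7.03 and 7.27 in Q-NSPCs, against 9.21, 9.08 and 8.97 in A-NSPCs. Every Q-NSPC array lay below every A-NSPC array, and Q-NSPC replicate 1 lay nearest to the A-NSPCs. The log2 difference of Neurod1 was -1.53 with a standard error of 0.30 (95% interval -2.22 to -0.83, adjusted p = 0.018), which is 2.89-fold lower (interval 1.78 to 4.68). Without Q-NSPC replicate 1 the log2 difference was -1.93 (adjusted p = 4.73e-05), whereas without Q-NSPC replicate 2 or 3, or without A-NSPC replicate 1, 2 or 3, it was -1.59 to -1.27 with an adjusted p of 0.0522 to 0.0818.

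For genes of dividing cells, too, Q-NSPC replicate 1 lay nearest to the A-NSPCs. Relative to the A-NSPC mean, the log2 difference of Neurod1 was -0.72 in Q-NSPC replicate 1 and -1.93 in the mean of Q-NSPC replicates 2 and 3. For Mki67 these differences were -0.24 and -1.27, and for Ccnd1, which encodes cyclin D1, they were -0.59 and -1.76. Ccnd1 passed the test (adjusted p = 0.0231, and 0.06 to 0.0967 without any array other than Q-NSPC replicate 1) and Mki67 did not (adjusted p = 0.0529). The part of cell division in the Neurod1 result was not tested.

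The other NeuroD genes did not pass. Neurod2, a factor of differentiated glutamatergic neurons, had log2 intensities of 6.09, 6.06 and 5.93 in Q-NSPCs and 5.88, 5.85 and 6.14 in A-NSPCs. The arrays overlapped, with a difference of 0.07 (95% interval -0.19 to 0.33, adjusted p = 0.762). Neurod4, which acts in early neuronal differentiation, had 7.04, 7.37 and 7.54 in Q-NSPCs and 7.08, 7.06 and 7.03 in A-NSPCs. Here Q-NSPC replicate 1 sat among the A-NSPC arrays while replicates 2 and 3 sat above them. Its difference was 0.26 (interval -0.04 to 0.57, adjusted p = 0.236), and without Q-NSPC replicate 1 it was 0.40 and passed (adjusted p = 0.0264).

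Neurod6, a factor of cortical and hippocampal pyramidal neurons, had log2 intensities of 5.84, 5.86 and 5.79 in Q-NSPCs, against 5.50, 5.57 and 5.52 in A-NSPCs. Its arrays were tight in both conditions and did not overlap. The difference of 0.30 (95% interval 0.10 to 0.50) had an adjusted p of 0.0594, and both groups lay below the median of all genes. Of the 6 bHLH members, 1 (Neurod1) passed, where 14.1% of all genes passed.

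Tbr1, a T-box factor of early-born glutamatergic neurons of the cortex, had log2 intensities of 6.91, 6.44 and 6.67 in Q-NSPCs and 6.78, 6.66 and 6.64 in A-NSPCs. The arrays overlapped, and the difference was -0.02 (95% interval -0.32 to 0.28, adjusted p = 0.95).

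Prox1, the factor that sets granule neuron identity in the dentate gyrus, lay at the edge of the threshold. Its log2 intensities were 9.63, 9.82 and 10.17 in Q-NSPCs, against 9.43, 9.11 and 9.41 in A-NSPCs. The arrays did not overlap, with Q-NSPC replicate 1 again the nearest to the A-NSPCs. The difference of 0.56 (standard error 0.16, 95% interval 0.20 to 0.92) is 1.47-fold and had an adjusted p of 0.051. Prox1 passed in 3 of 15 alternative settings. One of them left out Q-NSPC replicate 1 (difference 0.68, adjusted p = 0.0121). The others were a variance trend and robust settings together (adjusted p = 0.0499) and genes above the median level alone (adjusted p = 0.0331). When 1 of the other arrays was left out, Prox1 did not pass (adjusted p from 0.11 to 0.156).

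Dcx rose in Q-NSPCs under each way of leaving out an array. Its log2 intensities were 12.79, 13.23 and 13.36 in Q-NSPCs, against 12, 11.90 and 11.97 in A-NSPCs. The A-NSPC arrays lay close together, and every Q-NSPC array lay above them, Q-NSPC replicate 1 by the least. The difference was 1.17 (standard error 0.15, 95% interval 0.83 to 1.51, adjusted p = 0.00499), or 2.25-fold (interval 1.78 to 2.85). Leaving out 1 array at a time gave differences of 1.05 to 1.33, with adjusted p-values from 0.0001 to 0.0326. Relative to the A-NSPC mean, Q-NSPC replicate 1 stood 0.84 higher and the mean of Q-NSPC replicates 2 and 3 stood 1.33 higher. In this array Dcx had thus gone 62.6% of the way to the other Q-NSPC arrays, and Neurod1 37.1% of the way, which is a description of 1 array.

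**Figure D2:**
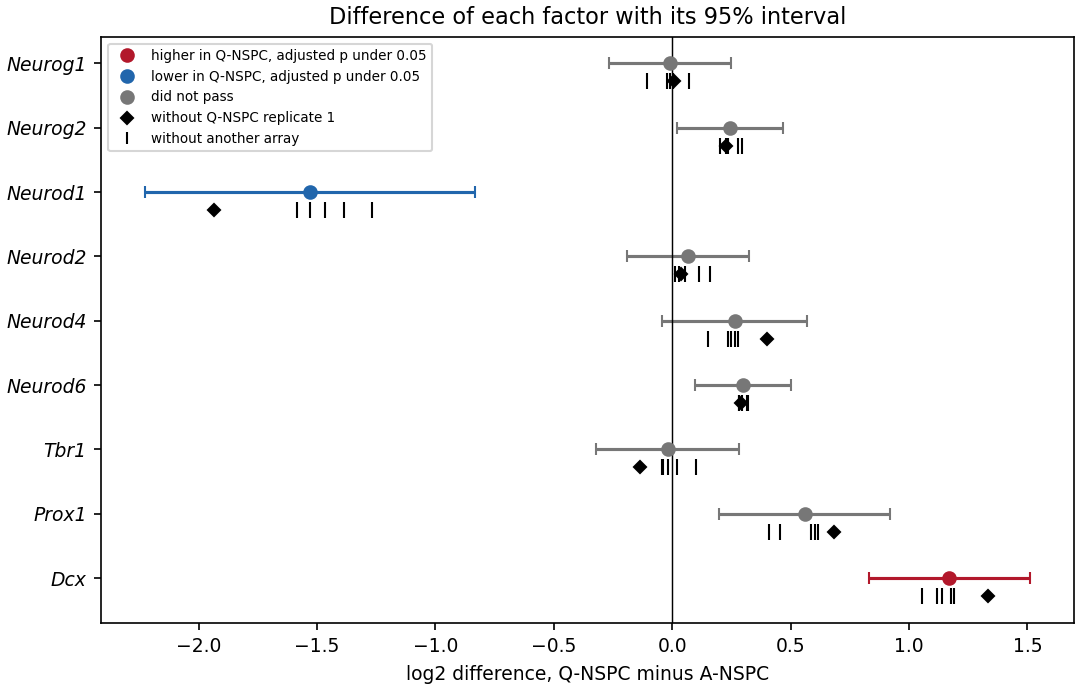
Log2 difference, Q-NSPC minus A-NSPC, of each measured factor with its 95% interval from limma (points and bars), and the difference after leaving out Q-NSPC replicate 1 (diamonds) or 1 of the other arrays (ticks). Dcx at 1.17 and Neurod1 at -1.53 are the coloured points that passed, and Prox1 at 0.56 did not.

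The stretches upstream of the pair of genes that passed are shown because these genes moved in opposite directions under BMP4. A further reason is that the study centred on LEF1, whose motif was searched here in these stretches. The study's own search was in enhancers of mouse NSPCs, another kind of region. Each run holds the 250 bases before the annotated start of the gene on its own strand (RefSeq, build GRCr8), at chr3:84770455-84770704 on the minus strand for Neurod1 and at chrX:112304162-112304411 on the minus strand for Dcx. Capitals mark matches on either strand to the E-box CANNTG, bound by bHLH dimers, or to the LEF1 motif CTTTGT. These motifs do not overlap here.
Neurod1: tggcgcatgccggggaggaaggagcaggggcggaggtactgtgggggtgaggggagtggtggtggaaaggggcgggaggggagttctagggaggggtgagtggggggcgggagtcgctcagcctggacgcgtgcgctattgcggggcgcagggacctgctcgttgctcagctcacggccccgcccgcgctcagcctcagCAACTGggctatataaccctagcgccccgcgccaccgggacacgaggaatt
Dcx: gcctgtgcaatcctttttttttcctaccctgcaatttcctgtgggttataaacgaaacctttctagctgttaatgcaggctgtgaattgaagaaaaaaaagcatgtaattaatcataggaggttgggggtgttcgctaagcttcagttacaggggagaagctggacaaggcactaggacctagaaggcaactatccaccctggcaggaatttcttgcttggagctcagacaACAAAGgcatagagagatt
The Neurod1 stretch holds 1 E-box, 51 bases before the start, and no CTTTGT. The Dcx stretch holds 1 CTTTGT, read on the other strand 19 bases before the start, and no E-box. In all 33469 stretches of the same length in the RefSeq table, CANNTG is found in 65.5% and CTTTGT in 16.3%. The table holds 9 of the 10 factors (not Prox1), of which 4 hold CANNTG (Neurod1, Neurod2, Neurod6 and Tbr1) and 2 hold CTTTGT (Dcx and Tbr1). These matches describe letters and not binding.

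The genes whose arrays were most like those of Neurod1 and Dcx are given as a description, by Pearson r over the 6 arrays, among 1101 other genes with an SD of at least 0.5. The r reflects the gap between conditions and the place of Q-NSPC replicate 1, which all these genes share. For Neurod1 they were Arxes1 (r = 0.9996), C1ql2, a secreted synaptic protein of granule neurons (r = 0.9990), and Dlgap5, a protein of the mitotic spindle (r = 0.9989). C1ql2 had log2 intensities of 9.40, 7.93 and 8.30 in Q-NSPCs, against 10.40, 10.26 and 10.16 in A-NSPCs. For Dcx they were Sorbs2, an adaptor of the actin cytoskeleton (r = 0.9991), Bhlhe22, a bHLH factor of differentiating neurons (r = 0.9986), and Ypel4 (r = 0.9981). Bhlhe22 had 8.36, 9.26 and 9.43 in Q-NSPCs, against 7.10, 7.00 and 7.07 in A-NSPCs.

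Some other genes of immature neurons moved beside Dcx. Of 23 measured genes of neuroblasts and immature neurons, 9 rose and 1 fell in Q-NSPCs (43.5%, against 14.1% of all genes). The median difference was 0.38, and 18 of the 23 had a mean over the arrays above the median of all genes. Tubb3, the neuronal tubulin, had a log2 intensity of 12.14 ± 0.37 in Q-NSPCs and 10.36 ± 0.11 in A-NSPCs (SD, n = 3 each), a 3.44-fold difference (adjusted p = 0.00229). Stmn4, of the microtubule-regulating stathmins, rose by 1.25 on the log2 scale, Elavl3, a neuronal RNA-binding protein, by 1.18 and Sox4, a factor of neuronal differentiation, by 0.97. These 4 passed in all 6 fits that left out 1 array. Rbfox3, which encodes the mature neuron antigen NeuN, fell, with a difference of -0.69 (adjusted p = 0.0284, and 0.0822 to 0.11 without Q-NSPC replicate 2 or 3 or A-NSPC replicate 1 or 3). Leaving out Q-NSPC replicate 1 gave 10 that rose, and leaving out A-NSPC replicate 1 gave 4, while A-NSPC replicate 3 or Q-NSPC replicate 3 gave 5 each.

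Among relatives of Dcx and genes of neuronal migration, Dclk2 and Reln rose. Of 19 measured, 2 rose and 1 fell, a share of 15.8% that is near the 14.1% of all genes, and the median difference was 0.12. Dclk2, a kinase with the doublecortin domain, had log2 intensities of 11.59, 12.04 and 11.86 in Q-NSPCs, against 10.46, 10.43 and 10.41 in A-NSPCs, and rose 2.64-fold (adjusted p = 0.00204). Reln, which encodes the secreted guide of migrating neurons, was 2.50-fold higher (adjusted p = 0.00226). Both passed in all 6 fits that left out 1 array. Pafah1b3, a subunit of a phospholipase complex that holds the lissencephaly protein, fell, with a difference of -0.47 (adjusted p = 0.0462, and 0.0757 to 0.162 without any 1 array other than Q-NSPC replicate 1). Without Q-NSPC replicate 1, 6 rose and 3 fell.

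Genes of intermediate progenitors and bHLH relatives were set beside Neurod1 and the neurogenins. Of 14 intermediate progenitor genes, 4 rose and 0 fell by limma (28.6%, against 14.1% of all genes), with a median difference of 0.26. At an unadjusted p under 0.05 there were 9 of the 14, against 29.5% of all genes. Of these 9, Dll1 and Sox21 were lower in Q-NSPCs. Dll1, a Notch ligand, had log2 intensities of 10.40, 8.31 and 8.93 in Q-NSPCs, against 10.73, 10.60 and 10.84 in A-NSPCs, which did not overlap. Its difference of -1.51 had an adjusted p of 0.0577, and 1 gene of the list fell without Q-NSPC replicate 1, with the replicate block, with arrays shifted to the same median and among genes above the median level. Mfap4, a matrix protein, was 3.46-fold higher, the corepressors Cbfa2t2 and Cbfa2t3 rose by 0.52 and 0.63 on the log2 scale, and Insm1, a zinc finger factor of basal progenitors, by 0.37 (adjusted p = 0.044). Mfap4 alone passed in all 6 fits that left out 1 array, and the number that rose was 6 without Q-NSPC replicate 1, 2 without A-NSPC replicate 2 and 1 without any other array. Among 15 bHLH relatives and E proteins, the dimer partners of the members, 3 rose and 1 fell (26.7%, against 14.1% of all genes). Bhlhe22 was 3.90-fold higher, Atoh8 rose by 0.68 on the log2 scale, and the E protein Tcf4 by 0.41 (adjusted p = 0.0364). Olig2, a bHLH factor of the oligodendrocyte lineage, fell, with a difference of -0.91 (adjusted p = 0.0419). Tcf4 and Olig2 each did not pass when any 1 array other than Q-NSPC replicate 1 was left out (adjusted p from 0.0909 to 0.152).

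Genes of dentate granule neurons beside Prox1 went both ways. Of 20 measured, 6 rose and 2 fell in Q-NSPCs (40.0%, against 14.1% of all genes), with a median difference of 0.08. Bcl11b, a zinc finger factor of granule and other projection neurons, had log2 intensities of 8.75, 9.61 and 9.84 in Q-NSPCs, against 7.65, 7.75 and 7.38 in A-NSPCs, and was 3.49-fold higher (adjusted p = 0.00684). Npnt, a matrix protein, rose by 0.75 on the log2 scale and Zbtb20, a factor of hippocampal neurons, by 0.49. C1ql2 fell, with a difference of -1.73 (adjusted p = 0.0152). Bcl11b alone of these 8 passed in all 6 fits that left out 1 array. Slc17a7, the vesicular glutamate transporter of mature granule neurons, had a difference of -0.03 (adjusted p = 0.915). Its mean over the arrays was 6.27, under the median of all genes (8.27), and there is no detection call. The numbers were 5 higher and 5 lower without Q-NSPC replicate 1, and 1 to 3 higher and 0 to 2 lower without 1 of the other arrays.

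Among 17 measured transcription factors used in glutamatergic neurons of the forebrain, 10 rose and 0 fell (58.8%, against 14.1% of all genes). The median difference was 0.61, and 14 of the 17 had an unadjusted p under 0.05, against 29.5% of all genes. Many of these factors also act in other cells, the GABAergic lineage and glia among them. This list, like the others, was chosen with earlier results of these data known. In it, 11 of the 17 had a mean over the arrays above the median of all genes. Mef2c, a MADS-box factor, was 4.38-fold higher, and Pax6, a homeobox factor of radial glia and early neuronal progenitors, was 2.10-fold higher (adjusted p = 0.00576). Pax6 had log2 intensities of 8.22, 8.33 and 8.31 in Q-NSPCs, against 7.23, 7.48 and 6.92 in A-NSPCs. Lmo3, a LIM-only cofactor, rose by 1.15 on the log2 scale. Mef2c, Bhlhe22, Pax6 and Lmo3 passed in all 6 fits that left out 1 array, and the number that rose was 13 without Q-NSPC replicate 1 and 5 to 7 without 1 of the others.

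**Figure D3:**
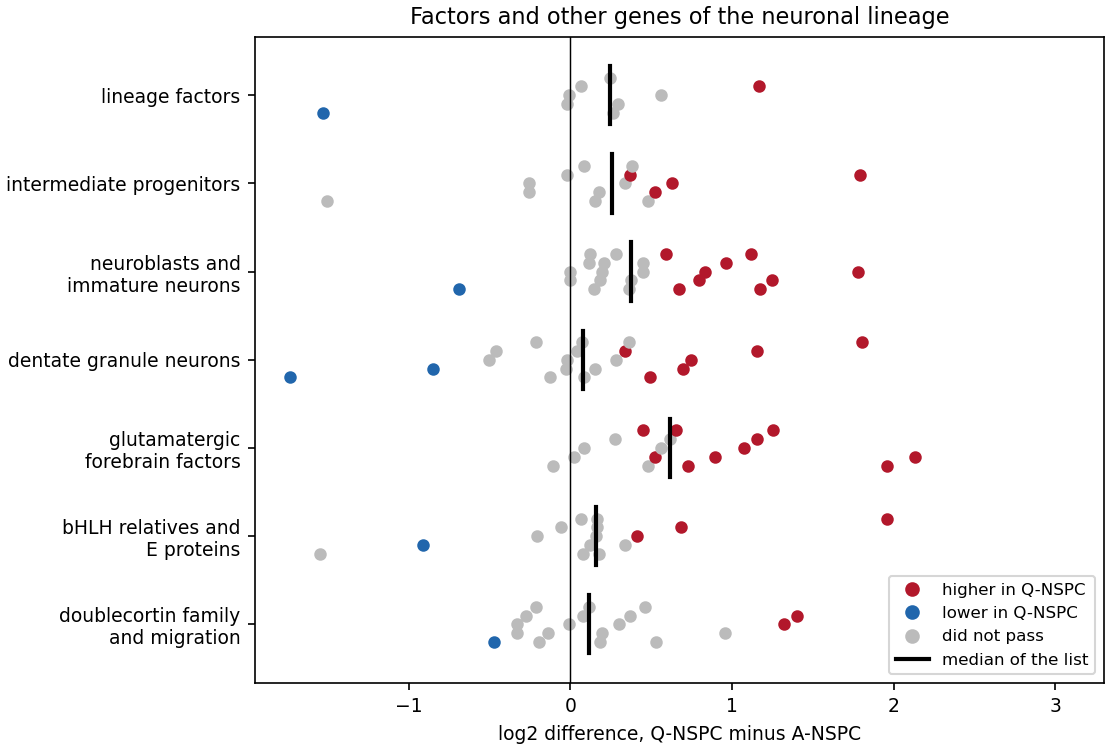
Log2 difference, Q-NSPC minus A-NSPC, of each measured gene in the set of lineage factors and in 6 other lists of the neuronal lineage, 1 point per gene, red where higher and blue where lower in Q-NSPCs at an adjusted p under 0.05, with the median of each list as a black bar. The median was 0.24 for the lineage factors, 0.38 for neuroblasts and immature neurons and 0.61 for the glutamatergic forebrain factors. Some genes stand in more than 1 list.

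Markers of other brain cells were measured beside these genes. Of 10 measured GABAergic neuron markers, 7 rose (70.0%, against 14.1% of all genes). The same 7 rose in all 6 fits that left out 1 array. The mean log2 intensity over the 10 markers was 9.62 to 10.33 in the Q-NSPC arrays, against 7.33 to 7.39 in the A-NSPC arrays. The smallest p-values among them were those of the homeobox genes Dlx1, Dlx5, Dlx2 and Dlx6, with differences of 3.63, 5.52, 4.65 and 3.79 on the log2 scale. Dlx2, a homeobox factor of GABAergic neurons, had 12.03, 13.22 and 13.20 in Q-NSPCs, against 8.25, 8.01 and 8.22 in A-NSPCs. Of 11 oligodendrocyte lineage markers 3 fell (Olig2, Pdgfra and Myrf), a share of 27.3% beside the 14.1% of all genes. The number that fell was 8 without Q-NSPC replicate 1 and 0 without any other array. The means over the 11 markers were 8.30 to 9.38 in Q-NSPCs and 9.44 to 9.56 in A-NSPCs. Of 10 astrocyte markers 2 rose (Gfap and Fgfr3), a share of 20.0% beside the 14.1% of all genes, with means of 9.10 to 9.22 in Q-NSPCs and 8.83 to 8.90 in A-NSPCs. Gfap, an intermediate filament gene of this list, had 8.55, 8.31 and 9.04 in Q-NSPCs, against 7.00, 6.92 and 6.43 in A-NSPCs. It was the only astrocyte marker called in all 6 fits, 1 being called without Q-NSPC replicate 2 or A-NSPC replicate 1 or 3. The list is not particular to astrocytes: the paper states that radial glia-like stem cells also express GLAST, encoded by Slc1a3. Of 10 microglia markers and 7 endothelial and mural cell markers, 0 passed by limma (1 and 0 at an unadjusted p under 0.05). The part of these cell types in the rise of Dcx and the fall of Neurod1 was not tested.

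**Figure D4:**
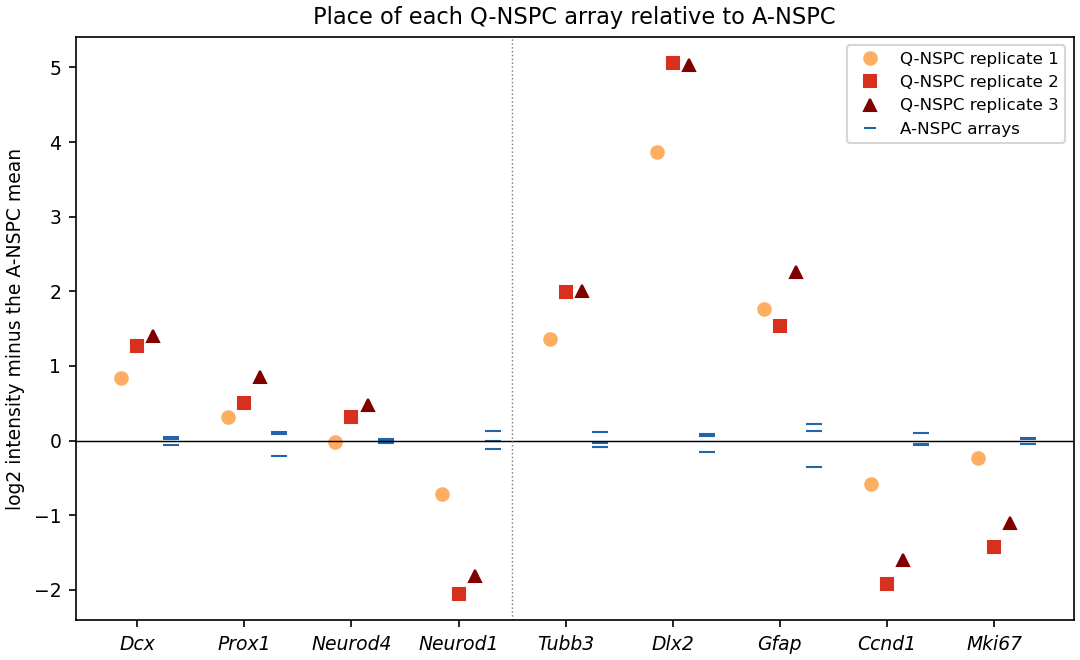
Log2 intensity of each Q-NSPC array minus the A-NSPC mean for 4 lineage factors (left of the dotted line) and 5 other genes (right of it), with the A-NSPC arrays as blue dashes. Q-NSPC replicate 1 lies nearest to zero among the Q-NSPC arrays for each gene but Gfap, at 0.84 for Dcx and -0.72 for Neurod1.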

How the data were processed

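Per the labels, the authors made the log2 intensities with RMA in Affymetrix Expression Console and Partek 6.10, which corrects background, equalizes arrays and summarizes probes. No scan files were used. Array medians were 7.53 to 7.57. Of 29214 probe sets, 18644 carry 1 symbol, 962 several and 9608 none in the platform annotation, and the brightest probe set was used for the 879 genes with more than 1. Precision is limited by the number of arrays.

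Differences were tested over 17245 genes with limma 3.58.1 in R 4.3.3 (lmFit, eBayes with a constant prior variance, two-sided, Benjamini-Hochberg), and the procedure was tested on simulated data. The methods name a t-test for the study's data in general and none for the arrays. Members and lists were chosen with earlier results of these data known. Named genes are all members and, in each other list, up to 4 called genes with the smallest p and 1 that went the other way. Mki67, Ccnd1, Sox2 and Gfap were named for their bearing on a result, and Mcm2, Slc17a7, Dll1 and Sox21 after their values were seen. Alternatives left out each array, blocked by replicate, changed the scaling, variance model, probe set rule and dim filter, or used the methods' t-test.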

Additional observations from a re-analysis of the deposited data

How the results depend on the processing

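Over 15 alternatives, Dcx passed in 13, Neurod1 in 8 and Prox1 in 3, always with the same sign. Leaving out 1 array at a time gave 1 to 3 factors higher (3 without Q-NSPC replicate 1) and 0 to 1 lower in Q-NSPCs, and 419 to 4079 genes past the test. Neurog1 and Tbr1, whose differences were near zero, changed sign without some arrays (ranges -0.107 to 0.071 and -0.138 to 0.099). With a variance trend and robust settings 2 factors were higher, and also 2 among genes above the median level, Prox1 being added in both. The methods' t-test, unpaired, left 0 factors higher, 0 lower and 0 genes after adjustment (5 factors, and 2399 higher and 1842 lower genes, at its own unadjusted threshold). Paired by replicate number it left 0, 0 and 1 (3 factors, 1542 and 1174 genes).

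Arrays with the same replicate number did not deviate together (r = -0.06, 0.01 and -0.03 over genes), and the replicate block in limma left 2043 genes, with Dcx at an adjusted p of 0.0106 and Neurod1 at 0.0139, changing no call among the factors. Of 360 list counts under the alternatives, 97 moved by over 1.5 times or between none and some. Of these, 56 moved when 1 array was left out, 30 with the methods' t-test and 11 with other settings. With 3 arrays per condition and no detection call, differences of the dim factors have no certain size.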
